A study of Homo sapiens with 2 samples.

Results

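The histone acetylation machinery was examined as a set of 34 named genes in PLC-8024 cells with and without GDF1. The set held 18 deacetylases (HDAC1 to HDAC11 and SIRT1 to SIRT7), 10 acetyltransferases, 3 bromodomain readers and 3 corepressor scaffolds, picked by gene symbol from the 58174 genes of the deposited tables. Each symbol matched 1 gene. PLC-8024 is a human hepatocellular carcinoma (HCC) cell line. The series comprised 1 library of cells carrying a control vector (PLC-8024-CTR, genotype given as Control) and 1 library of cells overexpressing GDF1, a secreted ligand of the TGF-β superfamily (PLC-8024-GDF1, genotype given as GDF1-overexpression). GDF1 was delivered by lentivirus and carrying cells were selected with puromycin, and the methods do not say that either line is a single clone. The cells of these libraries are called control cells and GDF1 cells from here on. The values are TPM, a transcript level scaled by gene length and to the same total in each library. There were no replicates of either condition, so no p-value is given and every difference describes these 2 libraries.

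Acetylation of lysines on histone tails loosens their hold on DNA and marks active promoters and enhancers. Acetyltransferases ("writers") add the mark from acetyl-CoA, deacetylases ("erasers") remove it, and bromodomain proteins ("readers") bind it. Class I deacetylases work in large corepressor complexes built on scaffolds such as SIN3 and NCoR, and the sirtuins (class III) differ from the zinc-dependent HDAC enzymes in consuming NAD+. Several of these enzymes also act on proteins other than histones, in the cytoplasm or in mitochondria. Epigenetic regulators were of interest in the study because the cancer-testis antigens it followed are normally kept silent by epigenetic means.

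Changes are given as log2((TPM + 1)/(TPM + 1)), GDF1 cells over control cells, and a gene is called higher or lower when this log2 change reached 1 or -1, which is 2-fold. The added 1 TPM makes changes of low genes smaller. The call was made where a gene reached 1 TPM in either library. This held for 14929 genes and for 30 of the 34 members, each of which had at least 1 TPM in both libraries. Among the 14929 genes the median log2 change was -0.20, so a member near that value moved with the bulk of the genes. Rescaling the GDF1 library by 1.15 brought this median to -0.02, and the genes past 2-fold from 720 higher and 1434 lower to 1040 higher and 1022 lower. TPM keeps no sequencing depth, so no counting error is given. All 11 hepatocyte and HCC markers had at least 1 TPM in control cells, from 7.17 TPM for TTR to 5308 TPM for SERPINA1. Of these 5 fell over 2-fold in GDF1 cells: ALB (from 15.0 to 6.07 TPM), AFP, TTR, APOA1 and HNF4A. The other 6 were within 2-fold, and 3 of them were higher: KRT8 (1424 and 1777 TPM), KRT18 (1005 and 1224 TPM) and TF (1318 and 1434 TPM). The study counted AFP among liver progenitor markers, which it reported by qPCR as raised by GDF1. The summed level of the 11 markers was 11836 and 9120 TPM, and the part of these markers in the results was not tested. Leukocyte and fibroblast markers were under 1 TPM in both libraries, and of the 3 endothelial markers PECAM1 alone exceeded 1 TPM (23.2 and 22.2 TPM). GDF1 itself was listed at 2.1 TPM and then 4.64 TPM, and CERS1, whose exons contain it, at 13.3 and 9612 TPM. In bulk RNA, fewer cells of a type and less RNA per cell cannot be told apart.

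HAT1, HDAC11, HDAC1, KAT7 and NCOR1 fell over 2-fold in GDF1 cells. No member rose over 2-fold. The 5 lower members made up 16.7% of the 30 above the minimum, against 9.61% of all 14929 genes and 10.5% of the 11792 protein-coding ones. With the GDF1 library rescaled, 3 members and 1022 of all genes were lower by 2-fold. With the median of genes of like GC content subtracted, 3 members were lower. All genes were not counted on that scale, so this count has no background beside it. For higher calls without these adjustments, the shares of all genes and of protein-coding genes were 4.82% and 4.06%. Of the 30 members, 26 had a log2 change below 0 (63.3% of all genes did), 6 of which turned above 0 with the GDF1 library rescaled, and 20 lay below the all-gene median. The median over the members was -0.34. By role, 2 of the lower genes are acetyltransferases, 2 are deacetylases and 1 is a corepressor scaffold, and 0 of the 3 readers were lower by 2-fold.

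The promoters of the 5 lower genes are shown because SMAD3, a transducer of GDF1 signals, binds short DNA boxes. Each window is the 250 bases before the start of the gene in RefSeq (GRCh38.p14, another build than the hg19 of the TPM tables), 5′ to 3′ on the strand of the gene. Capitals mark CAGAC or its reverse complement GTCTG, the SMAD box. Where RefSeq gives several starts the first listed was used.
HAT1, chr2:171922211-171922460, plus strand: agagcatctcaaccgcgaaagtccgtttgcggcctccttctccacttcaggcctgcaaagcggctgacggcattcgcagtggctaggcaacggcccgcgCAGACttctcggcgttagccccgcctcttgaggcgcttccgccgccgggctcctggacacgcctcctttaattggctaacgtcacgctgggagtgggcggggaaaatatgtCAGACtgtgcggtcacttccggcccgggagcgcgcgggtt
HDAC11, chr3:13480056-13480305, plus strand: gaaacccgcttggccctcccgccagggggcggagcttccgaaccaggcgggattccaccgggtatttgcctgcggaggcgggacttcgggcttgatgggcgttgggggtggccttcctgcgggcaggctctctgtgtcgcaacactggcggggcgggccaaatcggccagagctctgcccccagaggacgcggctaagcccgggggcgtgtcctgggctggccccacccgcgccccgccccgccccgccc
HDAC1, chr1:32291833-32292082, plus strand: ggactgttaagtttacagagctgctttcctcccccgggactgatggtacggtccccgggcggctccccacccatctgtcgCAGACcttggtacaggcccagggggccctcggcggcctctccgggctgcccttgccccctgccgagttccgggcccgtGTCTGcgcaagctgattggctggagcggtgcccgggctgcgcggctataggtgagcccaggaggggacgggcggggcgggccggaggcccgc
KAT7, chr17:49788431-49788680, plus strand: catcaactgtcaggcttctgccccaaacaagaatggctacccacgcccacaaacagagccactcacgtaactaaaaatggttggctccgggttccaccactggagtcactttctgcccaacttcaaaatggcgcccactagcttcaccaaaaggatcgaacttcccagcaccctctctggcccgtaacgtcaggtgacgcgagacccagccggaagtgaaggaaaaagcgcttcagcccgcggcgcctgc
NCOR1, chr17:16215535-16215784, minus strand: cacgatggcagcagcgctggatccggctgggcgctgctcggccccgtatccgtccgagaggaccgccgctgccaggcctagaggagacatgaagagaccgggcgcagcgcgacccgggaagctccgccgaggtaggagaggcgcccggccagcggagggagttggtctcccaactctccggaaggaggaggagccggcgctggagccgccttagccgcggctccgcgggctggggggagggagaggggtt

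The HAT1 and HDAC1 windows held 2 CAGAC boxes each and those of HDAC11, KAT7 and NCOR1 held 0. Among members with small changes, the windows of HDAC7 and SIN3B held 3, that of KAT2A 2, and those of HDAC10 and BRD3 0. These are examples picked by no set rule. The share of all windows with 2 or more boxes was not computed. Over the 53 start windows that RefSeq lists for 30 of the members, 18 held CAGAC on either strand (34%), against 38.0% of all 35116 windows of the same length. The GC-rich SMAD motif GGCGC, searched on both strands like the others, was in 60.4% of the member windows and 44.5% of all windows, and the SP1 box GGGCGG in 50.9% and 42.6%. In the windows shown, GGCGC counts were 5 for NCOR1, 4 for KAT7, 1 each for HAT1 and HDAC11, and 0 for HDAC1. In these counts a GGCGCC stretch counts once on each strand, so places with the motif can be fewer. A part of any of these motifs in the changes was not tested. Their letters can overlap each other in GC-rich windows, and the median GC content was 64.4% for the member windows and 58% for all windows. HDAC5, SIRT7, KAT6A and KAT8 were not matched in the promoter table.

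Among the deacetylases, all 4 class I enzymes had log2 changes below the all-gene median, and HDAC1 fell over 2-fold. HDAC1, the catalytic core of the SIN3, NuRD and CoREST complexes, had 86.9 TPM in control and 29.9 TPM in GDF1 cells (log2 change -1.51). HDAC1 (ENSG00000116478) lies on the plus strand of chromosome 1 of GRCh37 (32757684 to 32799236), and no other gene with at least 1 TPM overlaps it. HDAC2, its close paralog in the same complexes, had 15.5 and 8.27 TPM, a log2 change of -0.83. The level of HDAC1 was 5.61 times that of HDAC2 in the control library and 3.61 times in GDF1 cells. Added up, this pair went from 102.4 to 38.1 TPM, a log2 ratio of -1.43. Both paralogs were thus lower, HDAC1 the more so. With the median of genes of like GC content subtracted, HDAC1 was at -1.23 and HDAC2 at -0.36.

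The remaining class I enzymes stayed within 2-fold. HDAC8 was listed at 22.9 TPM and then 12.3 TPM, a log2 change of -0.85. HDAC8 and HDAC2 were the members nearest to the 2-fold limit without reaching it on this scale. As the plain ratio EP300 was nearer (-0.97, against -0.90 for HDAC8 and -0.91 for HDAC2). HDAC8 shares 17.7% of the 100-base windows of its longest transcript with another annotated gene, which has no row in the deposited tables. HDAC3, the enzyme of the NCoR complex, had 41.2 and 31.8 TPM (log2 change -0.36). Its share of class I TPM went from 24.7% to 38.7%, while that of HDAC1 went from 52.2% to 36.4%, so that HDAC3 had the highest class I level in GDF1 cells. The class as a whole had 166.5 TPM in control cells and 82.2 TPM in GDF1 cells. With the median of genes of like GC content subtracted, HDAC8 was at -0.37 and HDAC3 at -0.08.

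HDAC11, the single class IV enzyme, which also removes fatty acyl groups from lysine, had the highest level of all 34 members in control cells at 142.7 TPM. It had 41.7 TPM in GDF1 cells, a log2 change of -1.75, and had rank 5 there. Of all genes tested, 2.04% had a change as low or lower. HDAC11 (ENSG00000163517) lies on chromosome 3 (13521224 to 13547924, plus strand), and an antisense gene on the other strand, HDAC11-AS1, was listed at 1.47 and 0.64 TPM. The levels of HDAC11 in both libraries were thus far above those of its antisense gene.

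Class II deacetylases stayed within 2-fold. HDAC6, the cytoplasmic tubulin deacetylase, had 82.3 and 52.2 TPM, a log2 change of -0.65, and HDAC10, a polyamine deacetylase, had 41.7 and 40.1 TPM (log2 change -0.05, and 0.15 when rescaled). HDAC10 shares 70.6% of its 100-base windows with MAPK12, which overlaps it on the same strand, so its own level is uncertain. Added up, the pair had 85.7 and 87.7 TPM. In class IIa, whose members bind MEF2 factors and shuttle between nucleus and cytoplasm, HDAC5 had 22.6 and 26.6 TPM (log2 change 0.23), HDAC7 had 10.3 and 9.02 TPM (-0.17, and 0.014 when rescaled) and HDAC4 had 3.54 and 2.85 TPM (-0.24). HDAC9 was under 1 TPM in both libraries, at 0.18 and 0.26 TPM. These differences lie close to the all-gene median of -0.20 for HDAC4 and HDAC7 and above it for HDAC5. G6PC3 overlaps HDAC5 on the other strand and had 186.1 and 253.0 TPM. SLC48A1 overlaps HDAC7 in the same way, at 24.5 and 37.9 TPM. Whether reads of these genes added to the levels of HDAC5 and HDAC7 was not tested.

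Of the 7 sirtuins 6 were above the minimum, and none of these was past 2-fold. SIRT6, a nuclear enzyme of telomeres and DNA repair, had 68.6 and 76.2 TPM, a log2 change of 0.15, and went from the sixth to the third highest level of the 34 members. SIRT2, a mainly cytoplasmic enzyme, had 38.4 and 32.9 TPM (log2 change -0.21), and SIRT7, which acts in the nucleolus, had 33.8 and 27.4 TPM (-0.29). NFKBIB overlaps SIRT2 on the other strand and had 83.4 and 102.2 TPM. SIRT1, the sirtuin most studied in metabolism, was at 0.93 and 0.39 TPM, under the minimum in both libraries, and its log2 change was -0.48, but -1.09 with a pseudocount of 0.1 and -1.28 as the plain ratio. The mitochondrial sirtuins differed among themselves. SIRT4 had 2.26 and 4.18 TPM, the largest positive change of the members at 0.67. SIRT5, a desuccinylase, had 3.60 and 2.09 TPM (log2 change -0.57), and SIRT3, the main mitochondrial deacetylase, had 17.0 and 13.5 TPM (-0.32). In sum the sirtuins had 164.6 TPM in control cells and 156.7 TPM in GDF1 cells, a log2 ratio of -0.07, whereas the zinc-dependent enzymes had 469.7 and 255.0 TPM, a log2 ratio of -0.88. The medians over the genes lay closer, at -0.25 and -0.50. Of the zinc-dependent enzymes above the minimum, only HDAC1 and HDAC11 were past 2-fold, and both had high levels in control cells.

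**Figure D1:**
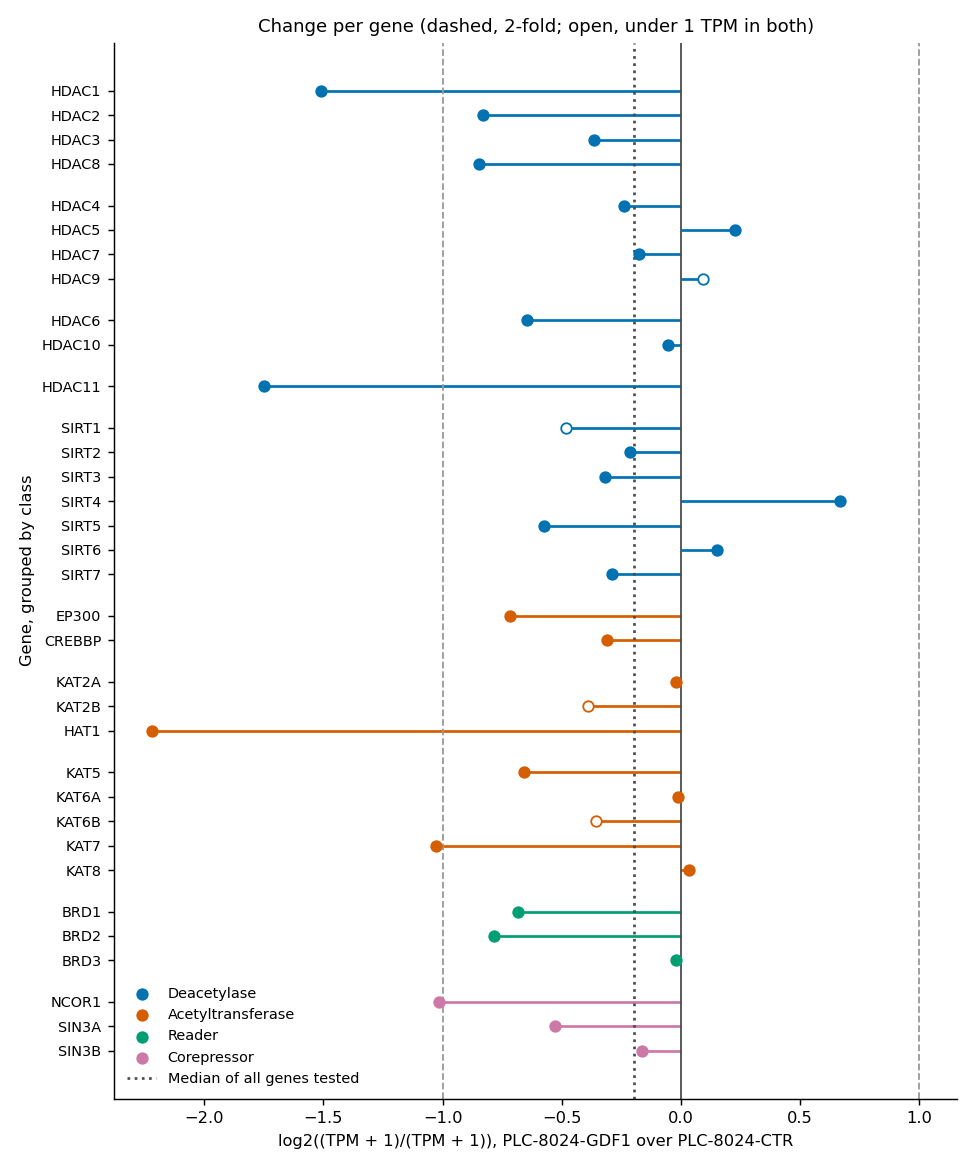
The log2 change of each gene (horizontal axis, GDF1 cells over control cells, pseudocount 1), coloured by role and grouped by class, with 1 library per condition. HAT1 (-2.22), HDAC11 (-1.75), HDAC1 (-1.51), KAT7 (-1.03) and NCOR1 (-1.01) lie left of the dashed 2-fold line, and SIRT4 (0.67) lies farthest to the right.

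HAT1 showed the largest change of any member. It encodes the acetyltransferase that marks newly made histone H4 before its deposition on DNA. HAT1 had 23.2 and 4.21 TPM, a log2 change of -2.22, and 0.94% of all genes tested had a change as low or lower. HAT1 (ENSG00000128708) lies on chromosome 2 (172778958 to 172848600, plus strand). SLC25A12 overlaps it on the other strand and had 2.75 and 4.36 TPM, the opposite direction.

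In the MYST family, KAT7 (HBO1), which acetylates histones H3 and H4 at replication origins and genes, had 4.81 and 1.85 TPM, a log2 change of -1.03. This call ended when the GDF1 library was rescaled (-0.89) and when the median of genes of like GC content was subtracted (-0.62). With a pseudocount of 0.1 the change of KAT7 was -1.33, and as the plain ratio -1.38. KAT7 (ENSG00000136504) lies on chromosome 17 (47865986 to 47912388, plus strand), and FAM117A on the other strand had 11.3 and 7.29 TPM. KAT5 (TIP60), an enzyme of the DNA damage response, had 124.2 and 78.4 TPM (log2 change -0.66), and KAT8 (MOF), which acetylates lysine on histone H4, had 26.5 and 27.1 TPM (0.03). RNASEH2C overlaps KAT5 on the other strand and had 74.8 and 86.9 TPM. KAT6A was just above the minimum at 1.05 and 1.04 TPM (log2 change -0.01, and 0.099 when rescaled), and KAT6B was under it at 0.71 and 0.34 TPM (-0.35, and -1.07 as the plain ratio). The log2 changes of the MYST genes above the minimum therefore ran from -1.03 to 0.03.

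KAT2A (GCN5), the enzyme of the SAGA and ATAC coactivator complexes, had 115.3 TPM in control cells and 113.8 TPM in GDF1 cells, a log2 change of -0.02 (0.19 when rescaled), and had the highest level of the members in GDF1 cells. Its paralog KAT2B (PCAF) was under the minimum at 0.51 and 0.15 TPM (log2 change -0.39, and -1.76 as the plain ratio). The general coactivators EP300 and CREBBP were low in both libraries. EP300 had 3.99 and 2.03 TPM (log2 change -0.72, and -0.97 as the plain ratio) and CREBBP had 4.55 and 3.48 TPM (-0.31). Together KAT2A and KAT5 made up most acetyltransferase TPM, with shares of 37.8% and 40.7% in control cells and 49.0% and 33.7% in GDF1 cells.

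Deacetylases and acetyltransferases were then set side by side. Of 16 deacetylases above the minimum, 2 fell over 2-fold (12.5%), and of 8 acetyltransferases 2 did (25%), against 9.61% of all genes. With so few genes per class, these shares do not separate the classes. The median log2 change was -0.30 for deacetylases and -0.48 for acetyltransferases, a difference of 0.18. When TPM was added up over each class the order was the opposite. Deacetylases had 634.3 and 411.7 TPM, a log2 ratio of -0.62, and acetyltransferases had 305.0 and 232.4 TPM, a log2 ratio of -0.39. The sum of deacetylase TPM was 2.08 times that of acetyltransferases in control cells and 1.77 times in GDF1 cells. HDAC11 and HDAC1 carried much of this difference, with 22.5% and 13.7% of deacetylase TPM in control cells and 10.1% and 7.26% in GDF1 cells. Without them the deacetylases had 404.7 and 340.1 TPM, a log2 ratio of -0.25. Without HAT1 the acetyltransferase median was -0.31. With the zinc-dependent enzymes alone the difference of the medians was -0.02. No direction between writers and erasers thus held across these summaries, and a difference between the classes was not shown.

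**Figure D2:**
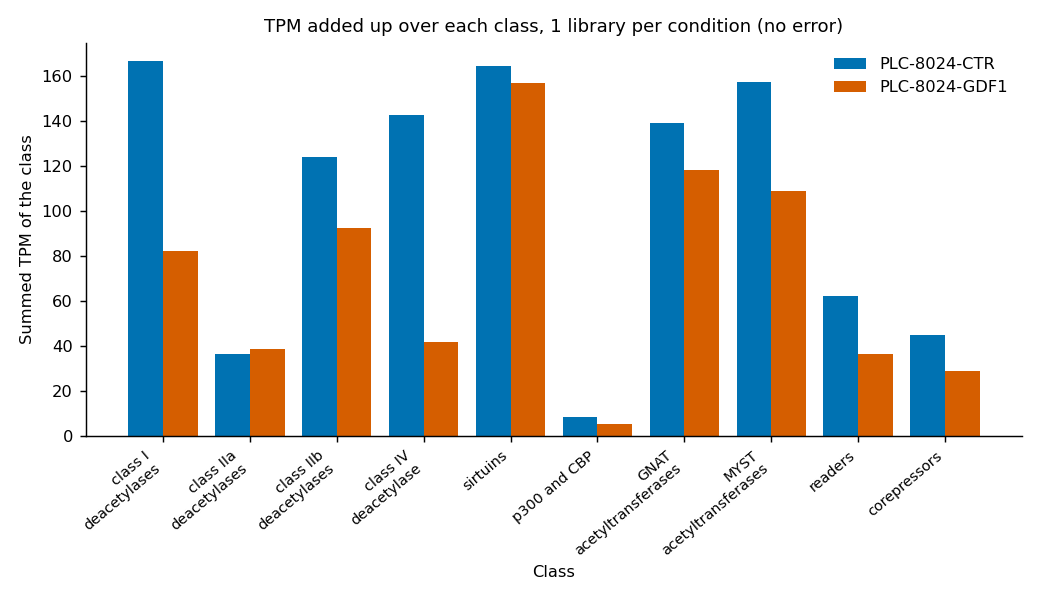
Summed TPM (vertical axis, from 0) of each class in control cells and GDF1 cells, 1 library each and so without error bars. Class I went from 166.5 to 82.2 TPM and class IV from 142.7 to 41.7 TPM, while the sirtuins (164.6 and 156.7 TPM) and class IIa (36.6 and 38.7 TPM) had bars of near equal height.

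Of the readers, BRD2, a BET protein that binds acetylated histone H4, had 56.3 and 32.3 TPM, a log2 change of -0.78. BRD3, another BET protein, was low and nearly equal at 1.80 and 1.77 TPM (log2 change -0.02, and 0.12 when rescaled). BRD1, a scaffold that brings KAT7 to histone H3, had 4.28 and 2.29 TPM (-0.68), and KAT7 itself had a log2 change of -1.03. BRD2 overlaps HLA-DMA on the other strand, which had 24.8 and 37.4 TPM. The readers thus all lay within 2-fold.

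NCOR1, the scaffold through which nuclear receptors recruit HDAC3, had 21.5 and 10.2 TPM, a log2 change of -1.01, the smallest among the members past 2-fold (-0.82 when rescaled, and so within it). NCOR1 (ENSG00000141027) lies on the minus strand of chromosome 17 (15932379 to 16121499). PIGL, TTC19 and AC002553.3 overlap it on the other strand, and PIGL had 18.1 and 11.1 TPM. SIN3A and SIN3B, the scaffolds that hold HDAC1 and HDAC2, had 8.50 and 5.59 TPM (log2 change -0.53) and 14.8 and 13.1 TPM (-0.16, and 0.029 when rescaled).

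Partner genes of these enzymes were read from 10 lists with 140 genes, of which 130 had at least 1 TPM in either library. Over the lists 2 genes rose over 2-fold (1.54%, against 4.82% of all genes) and 9 fell (6.92%, against 9.61%), with a median log2 change of -0.30. The partners thus held no larger share of called genes than the whole table in either direction. In the SIN3-HDAC list 2 of 13 fell and 0 rose, with a median of -0.45. PHF12, a PHD finger subunit, had 10.9 and 3.21 TPM (log2 change -1.50). SINHCAF had 5.30 and 0.10 TPM (-2.51), but AC024940.5, which overlaps it on the same strand, was listed at 0.0059 and 8.30 TPM, and their added TPM went from 5.30 to 8.40. The fall of SINHCAF is therefore uncertain.

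In the NuRD list, the remodelling complex that carries HDAC1 and HDAC2, 1 gene rose and 1 fell of 10, with a median of -0.17. CHD4, the ATPase of the complex, rose from 31.9 to 74.2 TPM (log2 change 1.19), while CDK2AP1 fell from 11.8 to 4.84 TPM (-1.14). The direction of CHD4 was thus the opposite of that of HDAC1, its catalytic partner. None of the 5 NCoR subunits was past 2-fold, and the largest change was that of TBL1X, at 19.96 and 13.0 TPM.

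Among the 24 SAGA and ATAC subunits, partners of KAT2A, 1 rose and 2 fell, with a median of -0.59, and KAT2A itself had a log2 change of -0.02 (0.19 when rescaled). SGF29, a reader of methylated histone H3, rose from 32.4 to 70.2 TPM (log2 change 1.09), SUPT20H fell from 11.8 to 4.99 TPM (-1.10) and TAF5L from 8.41 to 3.66 TPM (-1.01). The 16 NuA4-TIP60 subunits, partners of KAT5, held no gene past 2-fold with the added 1 TPM and had a median of -0.46. VPS72 came nearest at 59.4 and 29.2 TPM (log2 change -0.998). As plain TPM ratios VPS72 (0.492), YEATS4 (0.478) and EPC2 (0.405) were lower by over 2-fold. None of the 9 MSL and NSL subunits, partners of KAT8, was past 2-fold. KANSL3, with the largest change among those with at least 5 TPM, had 12.3 and 8.99 TPM.

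Of 7 partners of KAT7 and KAT6A, 2 fell and 0 rose, with a median of -0.27. JADE1, a scaffold of KAT7, fell from 5.22 to 2.101 TPM (log2 change -1.004), and BRPF1, a scaffold of KAT6A, fell from 4.74 to 1.34 TPM (-1.30). Other acetyl-lysine readers gave 2 lower genes of 27, ATAD2 (4.03 and 1.16 TPM) and SMARCA2 (2.30 and 0.54 TPM), and 0 higher, with a median of -0.34. BAZ1B, a bromodomain protein of chromatin remodelling, had 6.13 and 12.4 TPM (log2 change 0.91). Of the 6 other acetyltransferases above the minimum none was past 2-fold, and ELP3, of the elongator complex, had 16.4 and 9.12 TPM. BRPF1, ATAD2 and SMARCA2 had under 5 TPM in both libraries and were named after their values were seen.

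**Figure D3:**
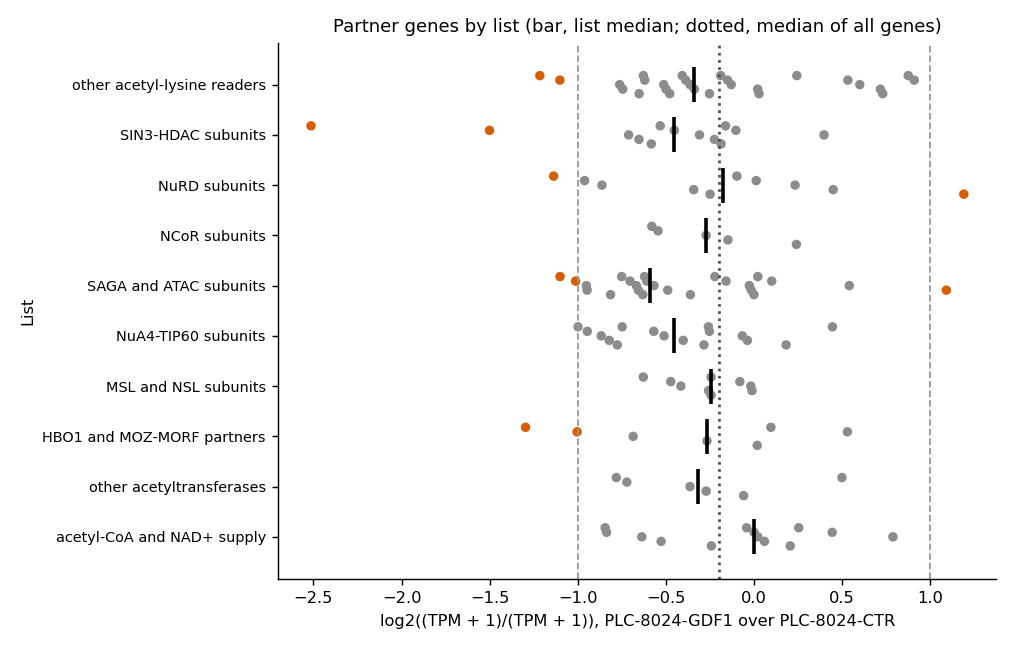
The log2 change (horizontal axis, GDF1 cells over control cells) of the 130 partner genes above the minimum, 1 point per gene and 1 line per list, with the list median as a black bar. Orange points are past 2-fold: 9 lie to the left, with SINHCAF at -2.51, and CHD4 (1.19) and SGF29 (1.09) lie to the right. The fall of SINHCAF is uncertain, since a gene overlapping it on the same strand rose.

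The change of a gene moved with the GC content of its transcript. When 11792 protein-coding genes were ordered by GC content and split into 5 groups of nearly equal size, the median log2 change ran from -0.48 in the AT-richest group to 0.11 in the GC-richest. The shares lower by 2-fold in these groups were 14.0% and 4.87%. Across the 30 members Spearman's rho between GC content and log2 change was 0.50 (Pearson's r 0.46), a description over genes of the same pair of libraries. The 3 members in the AT-richest group, HDAC2, HDAC8 and HAT1, had a median of -0.85, and the 7 in the GC-richest had a median of -0.05. HDAC11 was GC-rich (60.6%) and HAT1 AT-rich (40.9%). With the median of the same GC group subtracted, HDAC11 was at -1.86, HAT1 at -1.74 and HDAC1 at -1.23, still past 2-fold, while KAT7 was at -0.62 and NCOR1 at -0.61. On this scale the median over the partner lists was -0.035, and over the members -0.22. The median of the SIN3-HDAC list was then 0.025, of SAGA and ATAC -0.19, and of NuA4-TIP60 -0.16. The part of GC content in the changes of members and partners was not tested.

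Scaling mattered for members near the limit or near 0. With the GDF1 library rescaled, HAT1 was at -2.05, HDAC11 at -1.55 and HDAC1 at -1.31, and 3 members in place of 5 were past 2-fold, since KAT7 was at -0.89 and NCOR1 at -0.82. Among the partners CDK2AP1 (-0.96), SUPT20H (-0.93), JADE1 (-0.86) and TAF5L (-0.85) were then within 2-fold and BAZ1B (1.10) past it. Of the 34 members 17 overlap another gene with at least 1 TPM, 4 of them on the same strand. The methods do not state whether strand was used in counting, so reads of genes on opposite strands may not have been told apart.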

How the data were processed

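Poly(A)-selected RNA was sequenced as 1 library of PLC-8024-CTR and 1 of PLC-8024-GDF1 cells. Per the labels and methods, the authors filtered reads with Trimmomatic 0.36, aligned them to hg19 with HISAT2 2.1.0 and quantified them with StringTie 1.3.3b. The deposited values are TPM for 58174 Ensembl genes in each library, while the methods name a RefSeq annotation. TPM is scaled to a fixed total, so it does not show the depth per library or the precision that gives, and sequencing quality figures listed in the study's supplement were not used here.

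The 2 tables were joined on the gene identifier and log2((TPM + 1)/(TPM + 1)) was computed with Python 3.11.15, numpy 2.4.6 and pandas 2.3.3, and figures were drawn with matplotlib 3.10.9. Positions, overlaps and GC content came from GENCODE release 44 on GRCh37 (hg19), which held 55726 of the 58174 gene identifiers, and promoter sequences from RefSeq. Calls required at least 1 TPM in either library and a 2-fold change. The code was run on simulated data with rescaled TPM and changes well past 2-fold, planted in genes with at least 5 TPM. That run cannot speak for calls near 2-fold or for genes of low level. The members, lists and rules were chosen with earlier results of these data known. Named were all 34 members, partner genes past 2-fold with at least 5 TPM in either library (or the largest change of a list with none), GDF1 and CERS1. Any other gene was chosen after its values were seen. Alternatives were other pseudocounts, scalings, TPM minimums and class definitions.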

Additional observations from a re-analysis of the deposited data

How the results depend on the processing

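No paired analysis was possible because control and GDF1 cells were sequenced as single libraries. With rescaled TPM, 3 members were lower by 2-fold in place of 5, 5 partner genes in place of 9, and HDAC7 (0.014), HDAC10 (0.15), KAT2A (0.19), KAT6A (0.099), BRD3 (0.12) and SIN3B (0.029) reversed. With the median of the same GC group subtracted, chosen after the data were seen, 3 members were lower, and KAT2B (0.017), KAT6A (0.40), KAT6B (0.053) and BRD3 (0.26) reversed. All genes were not counted on that GC scale. The difference of the class medians, deacetylases minus acetyltransferases, was 0.18 and reversed with zinc-dependent HDAC genes alone (-0.021), with TPM added up (-0.23) and with genes overlapping another on either strand left out (-0.30, chosen after the data were seen). With a pseudocount of 0.1, 4 partner genes were higher and 17 lower, and 1167 of all genes were higher and 2315 lower, against 720 and 1434. With the plain TPM ratio these were 4, 18, 1229 and 2437. With at least 5 TPM, 471 of all genes were higher. No member was higher by 2-fold under the settings tried for that count. TPM carries no depth, which limits members of low level most.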

Other observations

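The substrates of these enzymes were read from a list of 14 genes of acetyl-CoA and NAD+ supply, 13 of which had at least 1 TPM in either library. None was past 2-fold, and the median log2 change was 0.00055, above the -0.20 of all genes. ACSS2, which makes acetyl-CoA from acetate in nucleus and cytoplasm, had 90.8 TPM in control and 50.1 TPM in GDF1 cells (log2 change -0.84). ACSS1, its mitochondrial counterpart, had 3.44 and 6.67 TPM (log2 change 0.79). ACLY, which makes acetyl-CoA from citrate, had 36.9 and 31.1 TPM (-0.24), and SLC25A1, the mitochondrial citrate carrier, had 266.9 and 308.0 TPM (0.21). In the NAD+ branch NAMPT, the salvage enzyme, had 9.10 and 4.66 TPM (-0.84), NNMT, which methylates nicotinamide, had 146.9 and 94.1 TPM (-0.64), and NAPRT, which uses nicotinic acid, had 27.0 and 32.4 TPM (0.25). The genes other than ACSS2 were named after their values were seen.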
